A study of Mus musculus with 4 samples.

Results

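The cells described here are type 1 conventional dendritic cells (cDC1) of 2153L mouse mammary tumours, the dendritic cells specialised in cross-presentation. They were picked by the UMIs (molecules counted by their unique barcodes) of a few genes in each cell barcode. A barcode was kept if Xcr1 and Clec9a together had at least 2 UMIs, C1qa, C1qb and C1qc together under 10, Cd3d, Cd3e and Cd3g together 0 and Siglech under 2, and if Ccr7 and Fscn1 were not both detected. The rule took 191 of 36287 barcodes that passed a filter of 200 or more genes and less than 10% of UMIs from mitochondrial genes. It took 39 of 10239 barcodes in the vehicle library, 26 of 8760 in ORIN1001, 52 of 8343 in docetaxel and 74 of 8945 in the combination.

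2153L is a genetically engineered mouse (GEM) mammary tumour, and the tumours analysed grew from tissue placed into the mammary fat pads of Balb/c females. The mice received vehicle, 150 mg/kg of ORIN1001, 20 mg/kg of docetaxel, or a combination of both, for 8 days, and CD45+ cells were sorted from the digested tumours. Control mice carried the same transplanted tumour as treated mice, so all 4 groups describe 1 tumour line in 1 host strain. Each group had 1 library. How many mice it came from, and their age, is not given in the sources used here. No difference below therefore has a replicate check or a test.

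A cDC1 takes up material from dying cells and loads peptides from it onto MHC class I, which activates CD8 T cells; the lineage depends on the transcription factors Irf8 and Batf3. Xcr1 is the receptor for the chemokine Xcl1 of T and NK cells, and Clec9a binds actin filaments exposed on dead cells. ORIN1001 blocks the RNase of IRE1α, the stress sensor whose cut product encodes the transcription factor XBP1s, and cDC1 are known for strong basal IRE1α activity. Docetaxel stabilises microtubules and stops dividing cells in mitosis.

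The 4 libraries held 8464 to 10362 deposited barcodes and 64257802 to 86383509 UMIs each, and their filtered barcodes had medians of 3916 to 4538 UMIs. The cDC1 were deeper, with medians of 18363, 22902.5, 19881.5 and 19831 UMIs in vehicle, ORIN1001, docetaxel and the combination, and 551380 to 1517833 UMIs in all per library. Levels below are CPM, the UMIs of a gene per 1000000 UMIs of that cDC1 sum. Where 4 values stand in a row, they follow the order vehicle, ORIN1001, docetaxel, combination. Between 95 and 128 filtered barcodes were shared by each pair of libraries, and 0 of them were cDC1 in both.

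The gated barcodes carried the cDC1 program. Naaa, a lysosomal amidase, was detected in 96.9% of them, Wdfy4, which is needed for cross-presentation, in 95.8%, Clec9a in 94.2%, Xcr1 in 89.0% and Gcsam in 80.6%. In the neutrophil gate the same genes were detected in 12.1%, 8.79%, 0.123%, 0.0388% and 0.0194% of barcodes. Detection of Naaa and Wdfy4 was less particular to cDC1: Naaa was found in 74.3% of cDC2 and 74.3% of macrophage barcodes, and Wdfy4 in 66.3% and 35.1%. The cDC2 gate itself excludes barcodes with Xcr1 or Clec9a. Clec9a was also detected in 32.8% of plasmacytoid dendritic cell (pDC) barcodes, gated on Siglech and on under 2 UMIs of Xcr1 and Clec9a, which caps that share. Xcr1 lies at chr9:123852315-123862029 on the minus strand and Clec9a at chr6:129408862-129424763 on the plus strand (mm10, GENCODE M21). Beside the 2 genes of the gate, the genes that stood highest in cDC1 against the next gate were Plpp1 (42.9-fold), the profilin receptor Tlr11 (19.7-fold) and the double-stranded RNA receptor Tlr3 (11.9-fold). Because the rule chose the cells by 2 of these genes, these levels describe the set and test nothing.

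**Figure D1:**
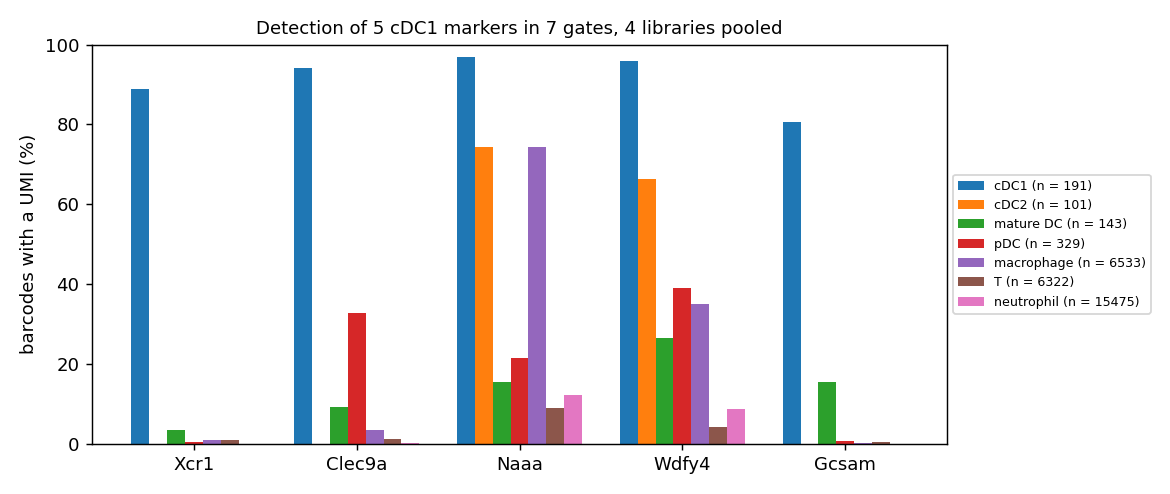
Percent of barcodes with at least 1 UMI of 5 cDC1 marker genes (y axis) in cDC1 and 6 other gates, with the 4 libraries pooled; n is the number of barcodes in a gate. Xcr1, Clec9a and Gcsam are detected in 80.6 to 94.2% of cDC1, whereas Naaa and Wdfy4 are also common in the cDC2 and macrophage gates.

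At the threshold the label holds less well. The 19 members with exactly 2 UMIs of Xcr1 and Clec9a had a Naaa level of 236 CPM and a Wdfy4 level of 193 CPM, and the 78 barcodes just outside, with 1 UMI, had 242 and 209 CPM. The 19 members with 3 or 4 UMIs had 1154 CPM of Naaa, and the 153 members with 5 or more had 1660 CPM. The neutrophil gene S100a9 was at 1788 CPM in the members with 2 UMIs and at 6.56 CPM in those with 3 or 4. Members with exactly 2 UMIs numbered 3, 5, 3 and 8 in the 4 libraries, so they made up a larger portion of the ORIN1001 set than of the others.

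The markers beyond the gate stood at like levels in all libraries. Naaa was at 1662, 1560, 1541 and 1436 CPM, Wdfy4 at 789, 803, 724 and 727 CPM, and Gcsam at 213, 189, 207 and 200 CPM. Irf8, the lineage factor, was at 2524, 2164, 2111 and 2243 CPM, and Batf3 at 196, 181, 240 and 219 CPM. The most distant library from vehicle in any of these 5 genes was docetaxel for Batf3, at a log2 ratio of 0.29. Xbp1, the transcript that IRE1α splices, was at 135, 132, 150 and 137 CPM. These 3' counts do not separate spliced from unspliced Xbp1.

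RNA of other cell types was present in the gate and differed by library. The summed level of 8 neutrophil markers was 1983, 348, 264 and 21.1 CPM, with 7 markers detected in each of the first 3 libraries and 5 in the combination, where S100a8, Cxcr2 and Retnlg were at 0. S100a9 alone was at 1168, 190, 130 and 2.64 CPM in cDC1, and at 3953, 5532, 838 and 312 CPM in the T cell gate of the same libraries. The 8 macrophage markers summed to 60.0, 738, 50.5 and 207 CPM, most of it Apoe in ORIN1001 (678 CPM). The lists of cDC2, pDC and tumour epithelium markers, 8, 8 and 6 genes, summed to 657 to 1322, 379 to 711 and 28.6 to 116 CPM, and the cDC2 marker Cd209a was at 0 in vehicle and ORIN1001. Bst2, described below as an interferon gene, held 237, 170, 711 and 809 of the 278, 224, 775 and 905 UMIs of the pDC list. Il1b held 761, 290, 427 and 577 of the 970, 440, 716 and 1227 UMIs of the cDC2 list. The sums of these lists are therefore not a measure of pDC or cDC2 RNA. The 10 T and NK cell markers summed to 7.34 to 13.8 CPM, with Trbc1 and Trbc2 at 0 in every library. That list includes Cd3d, Cd3e and Cd3g, which the rule sets to 0. The rule also caps C1qa, C1qb and C1qc in the macrophage list and Siglech in the pDC list. The sums of these lists are thus partly fixed by the rule. The 6 B cell markers summed to 1.36 to 5.44 CPM, with Cd79a and Pax5 at 0 in every library.

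cDC1 made up a larger share of the sorted cells with docetaxel, alone or with ORIN1001. The share of filtered barcodes was 0.381% in vehicle (exact 95% binomial interval 0.271 to 0.520%), 0.297% in ORIN1001 (0.194 to 0.435%), 0.623% in docetaxel (0.466 to 0.817%) and 0.827% in the combination (0.650 to 1.04%). The 2 libraries without docetaxel were lowest and the 2 with it highest. The log2 ratio of shares to vehicle was 0.71 (0.08 to 1.35) for docetaxel, 1.12 (0.54 to 1.72) for the combination and -0.36 (-1.13 to 0.39) for ORIN1001. All intervals in this text cover counting error only, not the spread between mice.

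These shares depend on what else was sorted. The neutrophil gate took 45.5%, 58.0%, 38.9% and 27.9% of the filtered barcodes. Outside it, cDC1 were 0.698% (0.497 to 0.954%), 0.706% (0.462 to 1.03%), 1.02% (0.762 to 1.33%) and 1.15% (0.902 to 1.44%) of barcodes, so the combination's log2 ratio to ORIN1001 went from 1.48 to 0.70. All of these intervals overlap. Over all filtered barcodes, the log2 share ratio to vehicle in cDC2 was 0.74 for docetaxel and 1.06 for the combination. In pDC it was 0.81 and 1.16, and in mature dendritic cells 1.84 and 0.08. A larger share with docetaxel was thus not particular to cDC1. Within the 4 dendritic gates together, the cDC1 share was 24.8% (18.3 to 32.4%), 35.1% (24.4 to 47.1%), 20.2% (15.4 to 25.6%) and 26.9% (21.8 to 32.6%), lowest in docetaxel. That library also had the most mature dendritic cells, barcodes with both Ccr7 and Fscn1, at 76 against 17 to 26 in the others.

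**Figure D2:**
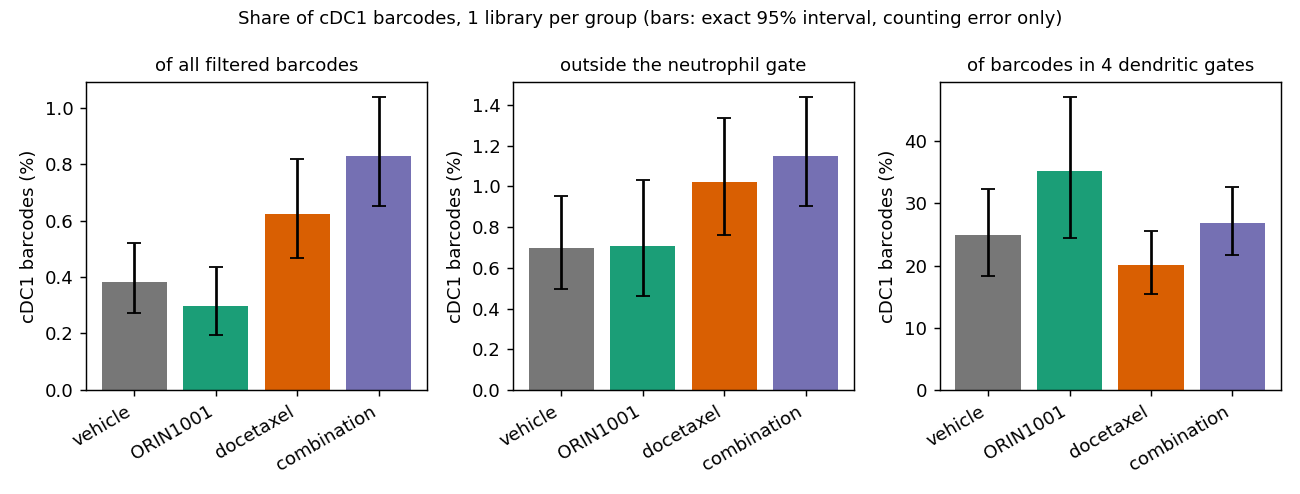
Share of cDC1 barcodes in each library (bars, percent) over all filtered barcodes, over barcodes outside the neutrophil gate and over barcodes in 4 dendritic gates; lines are exact 95% binomial intervals that cover counting error only. With docetaxel or the combination the share is highest over all barcodes (0.623% and 0.827%), while over dendritic gates docetaxel alone is lowest (20.2%).

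The comparison of docetaxel with vehicle asks what the taxane alone did to cDC1. With docetaxel, the lists of interferon-response and co-stimulation genes and the single genes Ly6a, Rgs1, Cd274 and Havcr2 stood higher, and Jun, Sgk1 and Ier3 stood lower. Of 4665 genes with at least 30 UMIs in either library, 144 (3.09%) were at least 2-fold higher and 38 (0.815%) at least 2-fold lower, and 53.9% had a log2 ratio above 0, with a median of 0.04. Over all 7 other ways of computing the ratio, 88 of the 144 and 13 of the 38 stayed past 2-fold.

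Ly6a, the GPI-anchored protein Sca-1 that interferon induces, was at 279, 218, 976 and 892 CPM. It was high in the 2 libraries with docetaxel and low in the 2 without, with a log2 ratio of 1.80 (1.59 to 2.03) for docetaxel to vehicle. It was detected in 16 of 39, 11 of 26, 27 of 52 and 47 of 74 barcodes. Its level was uneven, with medians per barcode of 0, 0, 46.4 and 177 CPM and highest barcodes at 4097, 3224, 8850 and 9217 CPM. Some high barcodes were low in Naaa, whose docetaxel median was 1619 CPM. Docetaxel barcodes with 8850 and 8437 CPM of Ly6a had 49.4 and 324 CPM of Naaa, but 1 with 5281 CPM had 1621 CPM. In the T cell gate Ly6a was at 483, 416, 1069 and 906 CPM, in the same order by docetaxel. How much free RNA of other cells adds to the cDC1 level was not tested.

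Rgs1, a regulator of G protein signalling in leukocytes, was at 193, 504, 743 and 518 CPM. Vehicle was the lowest library, and the log2 ratio of docetaxel to it was 1.94 (1.68 to 2.21). In the T cell gate Rgs1 stayed between 769 and 1025 CPM. The immune checkpoint ligand Cd274 (PD-L1) was at 20.4, 72.5, 73.4 and 53.4 CPM, a log2 ratio of 1.84 (1.04 to 2.75) for docetaxel. Havcr2 (TIM-3), a receptor that restrains cDC1 in tumours, was at 129, 250, 260 and 192 CPM, a log2 ratio of 0.95 (0.56 to 1.34) for ORIN1001. For both, all 3 treated libraries stood above vehicle. The same held for Cd274 in the neutrophil gate (323, 614, 435 and 555 CPM), the T cell gate (67.3, 94.9, 84.9 and 76.8 CPM) and the macrophage gate (30.5, 68.4, 41.4 and 54.8 CPM), but not in cDC2 or pDC, where vehicle was highest. It held for Havcr2 too in the T cell gate (25.3, 88.8, 61.0 and 117 CPM), the neutrophil gate (65.5, 78.3, 138 and 218 CPM) and the macrophage gate (102, 125, 116 and 120 CPM). In cDC2, mature dendritic cells and pDC it did not hold for Havcr2.

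Icosl, the ligand of the T cell receptor ICOS, was at 28.6, 41.7, 72.5 and 62.6 CPM, a log2 ratio of 1.34 (0.63 to 2.11) for docetaxel. In the list of co-stimulation and maturation genes, 11 of 12 measured members had a log2 ratio above 0 in docetaxel, with a median of 0.54. The mature dendritic cell markers, 8 genes, summed to 136, 107, 304 and 171 CPM in the gate, highest in the same library. That list includes Ccr7 and Fscn1, whose joint detection the rule excludes. In docetaxel Ccr7 held 226 of the 331 UMIs of the list. Those 226 UMIs lay in 7 of 52 barcodes, with 102 in the highest, so the sum does not describe cDC1 at large. The integrin Itgae (CD103), which marks a subset of cDC1, was at 304, 384, 575 and 443 CPM, a log2 ratio of 0.92 (0.70 to 1.15). Plet1, a GPI-anchored surface protein, was at 36.8, 9.07, 198 and 27.0 CPM and was detected in 4, 2, 21 and 12 barcodes. Its docetaxel level stood apart from the other 3 libraries, with a log2 ratio of 2.43 (1.85 to 3.06) to vehicle. Dnase1l3, a nuclease that degrades DNA of dying cells, was at 96.7, 102, 248 and 153 CPM, a log2 ratio of 1.36 (0.97 to 1.75).

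On the lower side, Sgk1, a kinase of the glucocorticoid and salt response, was at 119, 131, 43.1 and 75.1 CPM, a log2 ratio of -1.46 for docetaxel. Ier3, an early-response gene chosen here after its values were seen, was at 317, 352, 69.7 and 56.0 CPM, low in the 2 libraries with docetaxel. Its level in the T cell gate was 357, 310, 172 and 111 CPM and in the neutrophil gate 3730 to 4729 CPM. The summed neutrophil markers in cDC1, at 1983, 348, 264 and 21.1 CPM, were also lower in both docetaxel libraries than in vehicle, but unlike Ier3 they were low in ORIN1001 too. Their part in the Ier3 difference was not tested.

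**Figure D3:**
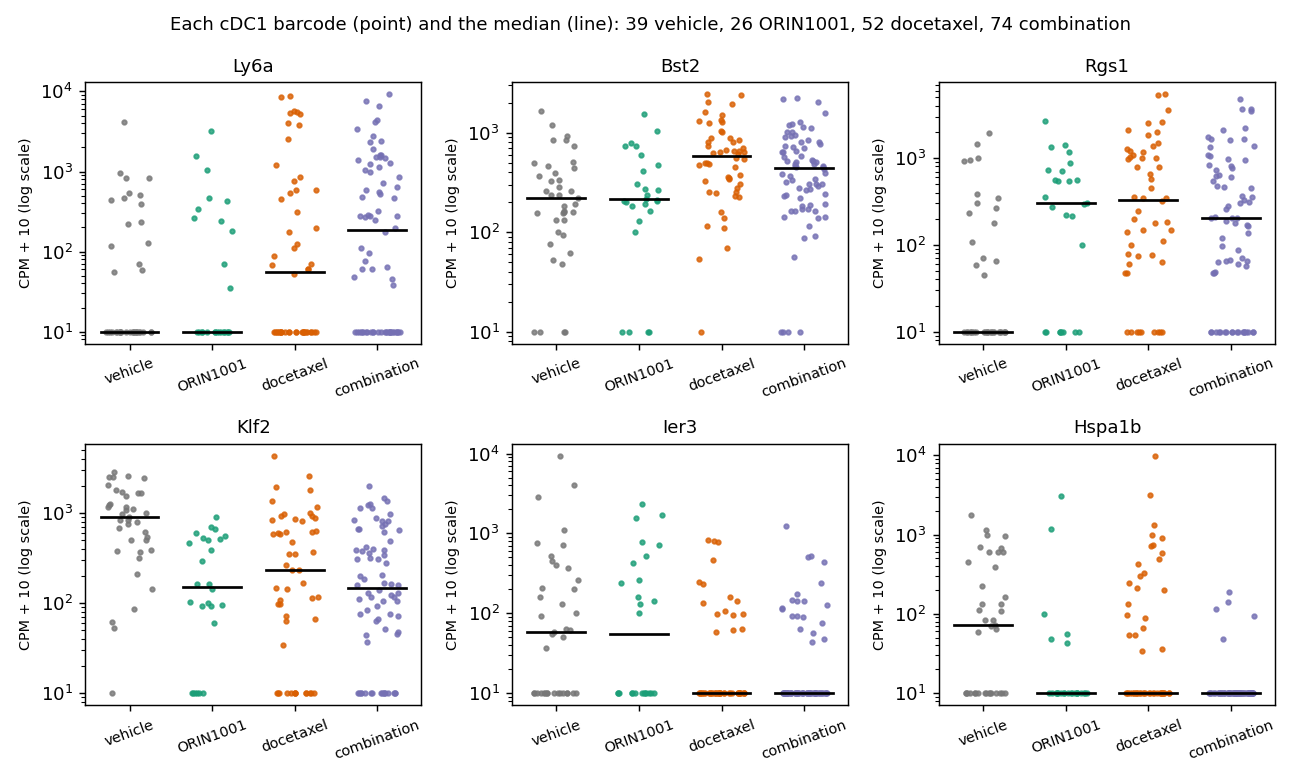
CPM + 10 on a log axis for each cDC1 barcode (points) and the median (line) of Ly6a, Bst2, Rgs1, Klf2, Ier3 and Hspa1b in the 4 libraries; points at 10 have no UMI. The median of Bst2 is 212, 206, 573 and 434 CPM and that of Klf2 895, 143, 224 and 139 CPM before the 10 is added, while Ly6a and Hspa1b are at 0 in many barcodes of every library.

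The comparison of ORIN1001 with vehicle asks what blocking IRE1α did to cDC1. Klf2 and the early-response genes stood lower and the glycolytic genes higher, while the XBP1s targets stood near their vehicle levels. Of 3550 genes measured, 71 (2%) were at least 2-fold higher and 103 (2.9%) at least 2-fold lower, and 43.1% had a log2 ratio above 0, with a median of -0.06. Past 2-fold in all 7 other computations were 34 of the 71 and 26 of the 103. With 26 barcodes this set was the smallest, and its largest barcode held 7.15% of its UMIs.

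Klf2, a transcription factor of leukocyte quiescence chosen after its values were seen, was at 993, 310, 500 and 333 CPM. Vehicle was highest and each treated library lower, with a log2 ratio of -1.68 (-1.93 to -1.44) for ORIN1001, -0.99 (-1.15 to -0.83) for docetaxel and -1.58 (-1.74 to -1.41) for the combination. It was detected in 38 of 39 vehicle barcodes and 20 of 26 in ORIN1001. The T cell gate showed 1016, 551, 491 and 311 CPM, so the gene was lower there too in the treated libraries. The early-response list holds immediate early and heat-shock genes known to respond to tissue digestion. In ORIN1001 0 of 14 members were above 0, with a median of -0.57. The T cell gate had 0 of 14 as well, with a median of -0.57, but its share of all genes above 0 is not given here.

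All 12 measured members of the hypoxia and glycolysis list had a log2 ratio above 0 in ORIN1001, with a median of 0.60. Gapdh was at 443, 704, 372 and 482 CPM, a log2 ratio of 0.67 (0.45 to 0.89), and the enolase Eno1 at 597, 941, 597 and 768 CPM, a log2 ratio of 0.66 (0.47 to 0.84). Without the barcode with the most UMIs of each gene the list median was 0.44. For Slc2a1, the glucose transporter, 1 barcode held 55 of 111 UMIs in ORIN1001, and for Bnip3 47 of 81. The cysteine protease Ctss, which trims the MHC class II invariant chain, was at 390, 774, 513 and 656 CPM, a log2 ratio of 0.99 (0.77 to 1.21). The macrophage gate was at 3010 to 3586 CPM for Ctss, macrophage markers were highest in the ORIN1001 cDC1 set, and their part in the Ctss difference was not tested.

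Genes near 0 in vehicle included Zeb2, a repressor of the cDC1 fate, at 1.36, 63.5, 43.1 and 24.4 CPM. It had 1 UMI in vehicle and 35 in 8 barcodes of ORIN1001, a log2 ratio of 5.54 with a counting interval of 2.97 to 10.89. Cybb, a subunit of the phagosomal NADPH oxidase, was at 6.81, 59.8, 73.4 and 48.8 CPM, and Ddit4, a stress-induced mTORC1 inhibitor, at 5.45, 52.6, 56.0 and 71.2 CPM. All 3 genes stood above vehicle in each treated library and were found in 7 to 30 barcodes of those libraries. That was 13.5 to 30.8% of cDC1 for Zeb2, 17.3 to 26.9% for Cybb and 26.9 to 40.5% for Ddit4. In the T cell gate, at a lower depth, 16.2 to 19.8%, 9.46 to 15.5% and 44.1 to 56.5% of barcodes had a UMI. How much of these levels is free RNA of other cells was not tested. In pDC Zeb2 was at 190 to 251 CPM and Cybb at 677 to 1018 CPM.

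The comparison of the combination with vehicle joins both drugs. The interferon-γ and MHC class I lists stood higher, and the early-response list, with the pair Hspa1a and Hspa1b, and the cholesterol-synthesis list lower. Of 5633 genes measured, 176 (3.12%) were at least 2-fold higher and 71 (1.26%) at least 2-fold lower, and 56.5% had a log2 ratio above 0, with a median of 0.05. Past 2-fold in all 7 other computations were 89 of the 176 and 28 of the 71. All 3 comparisons to vehicle share the vehicle library, whose 39 barcodes had the most neutrophil RNA.

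Qpct, glutaminyl cyclase, was at 6.81, 21.8, 10.1 and 58.0 CPM, with 88 UMIs over 27 of 74 barcodes in the combination and 5 UMIs in vehicle, a log2 ratio of 3.09 (1.81 to 4.75). Il18bp, the interferon-induced antagonist of the cytokine IL-18, was at 4.09, 21.8, 7.34 and 31.0 CPM, a log2 ratio of 2.92 (1.29 to 5.25). Fndc5, which encodes the precursor of irisin, was at 16.4, 36.3, 15.6 and 56.0 CPM, a log2 ratio of 1.78 (0.90 to 2.78). In all 3 genes the 2 libraries with ORIN1001 stood above the 2 without. The ORIN1001 level of Qpct rests on 12 UMIs in 8 barcodes. The summed macrophage markers in the cDC1 gate, at 60.0, 738, 50.5 and 207 CPM, were also higher in both ORIN1001 libraries. Their part in these differences was not tested.

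The paralogs Hspa1a and Hspa1b encode the inducible heat-shock protein HSP70, and their near-identical transcripts make the split of reads between them uncertain. Hspa1a was at 312, 167, 295 and 11.2 CPM and Hspa1b at 238, 238, 424 and 7.25 CPM. The combination was far below the other 3 libraries, with log2 ratios to vehicle of -4.80 (-5.60 to -4.09) and -5.04 (-6.07 to -4.17). Hspa1b was detected in 23 of 39, 6 of 26, 23 of 52 and 5 of 74 barcodes, and in docetaxel 1 barcode held 268 of 462 UMIs. In the T cell gate Hspa1b was at 198, 108, 102 and 33.0 CPM, and in the macrophage gate at 142, 173, 59.1 and 41.2 CPM, so the combination was lowest there too. In the pDC gate, at 1.55, 442, 54.0 and 41.6 CPM, vehicle was lowest. These genes are known to respond to handling during tissue digestion, and whether digestion differed between the tumours was not tested.

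The early-response list, to which both belong, had 1 of 14 members above 0 in the combination, with a median of -0.85. Jun was at 704, 461, 351 and 231 CPM, a log2 ratio of -1.61 (-1.81 to -1.41), and Fos at 3189, 2120, 2077 and 1754 CPM. In both genes vehicle was highest and the combination lowest. The same list had a median of -1.34 in the T cell gate and -1.22 in the macrophage gate, and without the members of 10 or more S100a8 and S100a9 UMIs its cDC1 median was -0.84.

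All 8 measured genes of the cholesterol-synthesis list, which are regulated by sterols, were lower in the combination, with a median of -0.96. Hmgcs1, an early enzyme of the pathway, was at 62.7, 56.2, 34.0 and 27.7 CPM and Fdps, a later one, at 164, 172, 149 and 99.5 CPM. The combination was lowest in both, at log2 ratios to vehicle of -1.18 (-1.82 to -0.54) and -0.72 (-1.07 to -0.36). In the T cell and macrophage gates 1 of 14 members was above 0, with medians of -0.49 and -0.41, and in pDC 0 of 13, with a median of -0.99. In cDC2 the list stood the other way, with 6 of 8 members above 0 and a median of 0.83. The share of all genes above 0 in these other gates is not given here.

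The comparison of the combination with docetaxel asks what ORIN1001 added to docetaxel. Beside the heat-shock pair, chemokine, type I interferon and co-stimulation genes stood lower with ORIN1001 added. Of 5692 genes measured, 66 (1.16%) were at least 2-fold higher and 78 (1.37%) at least 2-fold lower, and 54% had a log2 ratio above 0, with a median of 0.03. Past 2-fold in all 7 other computations were 31 of the 66 and 35 of the 78. Plet1 had a log2 ratio of -2.88 (-3.39 to -2.39) and Qpct one of 2.52 (1.61 to 3.58). Cxcl10, a chemokine that draws CXCR3+ T cells, was at 157, 59.8, 281 and 50.1 CPM, a log2 ratio of -2.49 (-2.87 to -2.12), with UMIs in 6, 5, 10 and 7 barcodes (15.4%, 19.2%, 19.2% and 9.46%). In the T cell gate, at a median of 5393.5 to 6378.5 UMIs, 9.14 to 18.7% of barcodes had a UMI and the level was 183, 109, 220 and 128 CPM, and in the neutrophil gate it was 608 to 2059 CPM. The share of cDC1 with Cxcl10 was thus within counting error of that in T cells in each library. Its UMIs were uneven: the highest and next barcode held 118 and 96 of 306 in docetaxel, and 24 and 20 of 76 in the combination. The Cxcl10 difference is not read as expression by cDC1 at large, and the source of these UMIs was not tested. Cxcl9, which binds the same receptor, was at 322, 201, 402 and 333 CPM, a log2 ratio of -0.27 (-0.46 to -0.08). Of the dendritic cell chemokine list 0 of 9 measured members were above 0 (median -1.03), and of the co-stimulation list 2 of 13 (median -0.44). The chemokine counts rest on few barcodes: for Ccl3 1 barcode held 83 of 120 UMIs in docetaxel, and for Ccl5 176 of 191. Without the members of 5 or more cell-cycle UMIs the chemokine median was -2.21, and without marked doublets -0.65.

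The combination against ORIN1001 asks what docetaxel added where ORIN1001 was present. Of 5625 genes measured, 218 (3.88%) were at least 2-fold higher and 80 (1.42%) at least 2-fold lower, and 57.2% had a log2 ratio above 0, with a median of 0.08. Past 2-fold in all 7 other computations were 91 of the 218 and 34 of the 80. Ly6a had a log2 ratio of 2.04 (1.77 to 2.32), and the argininosuccinate synthase Ass1, at 114, 103, 298 and 266 CPM, one of 1.36 (0.96 to 1.79) after 1.38 (1.03 to 1.75) for docetaxel to vehicle. These 2 comparisons share no library. Of 4574 genes measured in both, 123 were at least 2-fold higher without ORIN1001 and 116 with it, and 24 and 58 lower. At least 2-fold higher in both were 10, lower in both 9, and past 2-fold in opposite directions 10. The 10 that were higher in both were Ass1, Ddx58, Plet1, Ahsa2, Il12b, Slfn1, Ccr7, Cd7, Ly6a and Ly6c2, of which Il12b, Ccr7 and Cd7 were found in at most 7 barcodes of any library. Of the 9 that were lower in both, S100a8, S100a9, Cebpb, Cd14, Ier3, Ctsd, Hilpda and Ero1l stood highest in the neutrophil gate, at 0.594 to 5.19% of that level in cDC1, and Ccl2 in the macrophage gate. For ORIN1001 without and with docetaxel, again with no shared library, 5 of 3526 genes were higher in both, 7 lower in both and 2 opposite. The 5 stood highest in pDC (Pltp), macrophages (Apoe, Pla2g7) and neutrophils (Lilrb4a, Cd14), at 1.46 to 10.2% of that level in cDC1. Without the barcode with the most UMIs of each gene, only Pltp and Pla2g7 of these stayed past 2-fold in both. On top of docetaxel, Apoe then went from 3.14 to 0.28 and Cd14 from 1.11 to 0.13. Lilrb4a was at 0.63 without docetaxel and 0.97 with it. Of the 7, Il1r2, G0s2, S100a9, Cxcl10 and Oasl1 stood highest in neutrophils, Cd69 in T cells and Ccr7 in mature dendritic cells. Their cDC1 level was 40.5% of that for Oasl1 and 0.677 to 12.6% for the others. Taken singly, 61 genes were higher without docetaxel and 10 with it, and 92 and 29 lower.

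Antigen presentation genes made up a large part of the cDC1 transcriptome in every library. The MHC class II chains and the invariant chain Cd74 stood near their vehicle levels: H2-Aa was at 13956, 14366, 15088 and 14785 CPM and Cd74 at 26079, 27395, 29425 and 28892 CPM. The class II list had medians of 0.04, 0.14 and 0.06 for ORIN1001, docetaxel and the combination against vehicle. Ifi30, the thiol reductase of class II loading compartments, was at 826, 709, 1327 and 1214 CPM, higher in both docetaxel libraries, with a log2 ratio of 0.68 (0.55 to 0.82) for docetaxel. The cystatin Cst3, among the most abundant cDC1 transcripts, was at 20360.4, 20588, 30928 and 24878 CPM.

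The class I and cross-presentation list differed by small amounts. Above 0 were 11 of 18 measured members in ORIN1001 (median 0.02), 12 of 19 in docetaxel (0.11) and 18 of 19 in the combination (0.19). The class I heavy chain H2-K1 was at 1762, 2381, 2465 and 2483 CPM, a log2 ratio of 0.50 (0.40 to 0.59) for the combination. Its light chain B2m was at 1209, 1451, 1558 and 1677 CPM, a log2 ratio of 0.47 (0.36 to 0.58). Vehicle was lowest for both, and the class I heavy chains are close paralogs, so their counts are uncertain. Immunoproteasome and peptide transporter genes differed less: Tap1 was at 379, 432, 363 and 468 CPM and Psmb8 at 1369, 1208, 1258 and 1438 CPM. In the macrophage gate the class I list had 19 of 19 members above 0 in the combination, with a median of 0.82. The share of all genes above 0 in that gate is not given here.

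The interferon-γ list had medians of 0.19, 0.33 and 0.43 against vehicle, with 10 of 13 members above 0 in the combination. Without the members of 5 or more cell-cycle UMIs the last median was 0.16. The GTPase Irgm1 was at 104, 118, 124 and 171 CPM, and the GTPase Tgtp2, whose reads may be split with its paralog Tgtp1, at 50.4, 59.8, 67.0 and 111 CPM. Both were lowest in vehicle and highest in the combination.

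**Figure D4:**
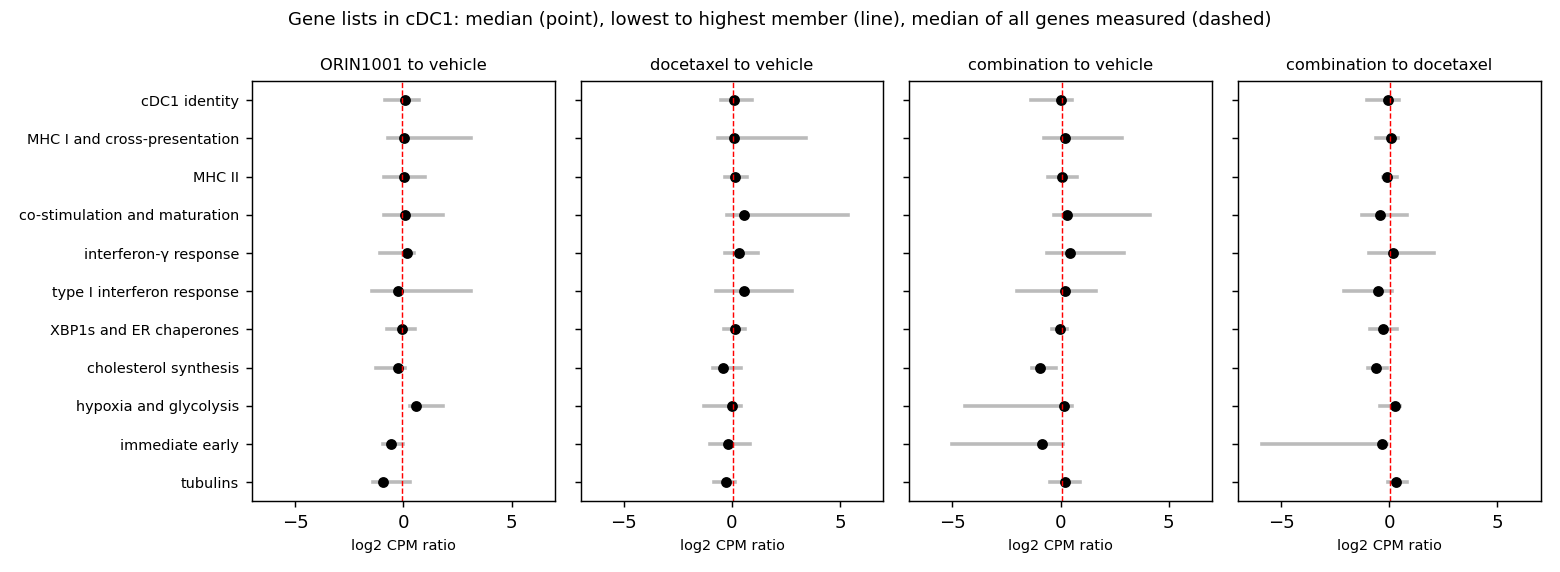
Log2 CPM ratio of gene lists in cDC1 for 4 comparisons: points are medians over the measured members, grey lines run from the lowest to the highest member and the dashed line is the median of all genes measured. Type I interferon genes lie to the right for docetaxel to vehicle (median 0.56) and to the left for the combination to docetaxel (-0.52); hypoxia and glycolysis genes lie right for ORIN1001 to vehicle (0.60) and cholesterol synthesis left for the combination to vehicle (-0.96).

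Type I interferon genes stood higher with docetaxel, most in the library without ORIN1001. Their promoters are shown because 19 of 22 measured members stood above 0 together in docetaxel. The sites below were found in RefSeq promoters (GRCm38.p6, 250 bases before to 50 after the gene start) by searching both strands for GAAANNGAAA, the core of the interferon-stimulated response element, printed in capitals within 20 flanking bases. All 4 sites are printed from the minus strand, which is the strand of Isg15, Bst2 and Oas1a; Stat2 lies on the plus strand.
Isg15, chr4:156200867-156200916: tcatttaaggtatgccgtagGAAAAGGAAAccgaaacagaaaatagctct
Bst2, chr8:71537573-71537622: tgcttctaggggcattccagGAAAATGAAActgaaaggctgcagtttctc
Oas1a, chr5:120907516-120907565: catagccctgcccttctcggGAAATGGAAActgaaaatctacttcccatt
Stat2, chr10:128270256-128270305: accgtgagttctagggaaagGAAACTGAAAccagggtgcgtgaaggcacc
The motif was in 12 of 19 promoters of the list that the table holds (63.2%) and in 3.99% of the promoters of 27025 genes. At Isg15, Bst2 and Oas1a further matches overlap the one in capitals. A match describes the letters only.

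Bst2 (tetherin), which holds budding virus on the cell surface, was at 323, 308, 653 and 533 CPM, a log2 ratio of 1.01 (0.80 to 1.23) for docetaxel. Isg15, a ubiquitin-like modifier, was at 544, 459, 841 and 547 CPM, a log2 ratio of 0.63 (0.46 to 0.80) for docetaxel and -0.62 (-0.76 to -0.48) for the combination to docetaxel. Oas1a, which makes the activator of RNase L, was at 65.4, 56.2, 80.8 and 73.1 CPM. Stat2, a transcription factor of this response, was at 102, 99.7, 172 and 126 CPM, and Irf7, its amplifying transcription factor, at 920, 597, 1336 and 1098 CPM. Docetaxel was the highest library for all 5 genes, and ORIN1001 the lowest. Irf7 was detected in all 52 docetaxel barcodes and in 34 of 39, 20 of 26 and 67 of 74 of the others. The list median was -0.23 for ORIN1001 (6 of 18 above 0), 0.56 for docetaxel, 0.21 for the combination (13 of 20) and -0.52 for the combination to docetaxel (2 of 22). Without the members of 5 or more cell-cycle UMIs the last 2 medians were -0.81 and -1.12, so the sign for the combination to vehicle depends on those members. In the docetaxel library the same list was higher than vehicle in other gates too, with medians of 0.69 in cDC2, 0.81 in pDC, 0.81 in T cells, 1.09 in macrophages and 1.21 in neutrophils. Adding ORIN1001 to docetaxel gave medians of -0.23 in cDC2, -0.28 in pDC, -0.21 in mature dendritic cells, -0.51 in T cells, 0.09 in macrophages and 0.20 in neutrophils.

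**Figure D5:**
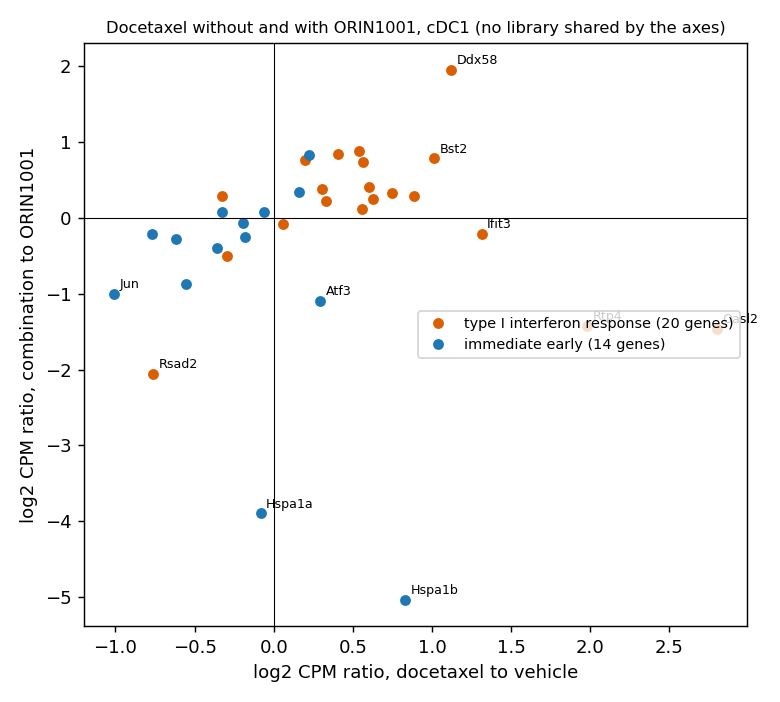
Log2 CPM ratio in cDC1 of docetaxel to vehicle (x axis) and of the combination to ORIN1001 (y axis) for 20 type I interferon genes and 14 early-response genes. Bst2 (1.01 and 0.79) is high on both axes, Oasl2 (2.80 and -1.46) and Rtp4 (1.98 and -1.42) lie on opposite sides, and Hspa1a and Hspa1b lie low on the y axis only.

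The targets of XBP1s and the endoplasmic reticulum chaperones, the genes nearest to the action of ORIN1001, stood close to vehicle. Their promoters are shown because the ER stress response element found in some of them, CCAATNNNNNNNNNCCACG, is where XBP1s and ATF6 are known to act; sites were searched on both strands and printed with the motif in capitals, those of Hspa5 and Hsp90b1 from the plus strand and that of Creld2 from the minus strand. Hspa5 and Creld2 lie on the plus strand and Hsp90b1 on the minus strand.
Hspa5, chr2:34772005-34772063: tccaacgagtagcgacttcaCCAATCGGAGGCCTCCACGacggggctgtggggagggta
Hsp90b1, chr10:86705513-86705571: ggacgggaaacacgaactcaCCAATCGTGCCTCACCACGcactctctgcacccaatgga
Creld2, chr15:88819500-88819558: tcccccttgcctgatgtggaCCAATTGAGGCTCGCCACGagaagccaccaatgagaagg
The motif was in 6 of 18 promoters of the list (33.3%) and in 0.137% of all promoters. Hspa5 (BiP), the main ER chaperone, was at 548, 479, 614 and 534 CPM, the chaperone Hsp90b1 at 561, 490, 526 and 468 CPM, and the disulfide isomerase Creld2 at 58.6, 65.3, 86.3 and 60.6 CPM. No library was more than 2-fold from vehicle in any of the 3. The list had 8 of 18 members above 0 in ORIN1001 (median -0.06), 14 of 20 in docetaxel (0.16), 10 of 21 in the combination (-0.04) and 3 of 21 in the combination to docetaxel (-0.26). In the pDC gate, with 22 barcodes in ORIN1001 and 70 in vehicle, 2 of 21 members were above 0 in ORIN1001, with a median of -0.50. In T cells 3 of 22 were above 0, with a median of -0.33. The share of all genes above 0 in these gates is not given here, so a shift of all genes cannot be told apart. Whether these gates differ from cDC1 in their response was not tested.

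Measured transcripts known as substrates that IRE1α cuts directly stood slightly higher with ORIN1001, by amounts near the counting error. Bloc1s1, the best-known of these substrates, was at 140, 163, 148 and 170 CPM, a log2 ratio of 0.22 (-0.21 to 0.64) for ORIN1001 to vehicle. Ergic3, a transport protein between ER and Golgi, was at 76.3, 105, 78 and 87.0 CPM, and the integrin chain Itgb2 at 373, 499, 389 and 477 CPM, with log2 ratios of 0.46 (-0.09 to 1.02) and 0.42 (0.17 to 0.66). Both ORIN1001 libraries stood above both others in all 3 genes, which were the measured members of a list of 8. The summed macrophage markers in the cDC1 gate, at 60.0, 738, 50.5 and 207 CPM, were also higher in both ORIN1001 libraries. Their part in these 3 differences was not tested. In the background 43.1% of genes were above 0 for ORIN1001 and 54% for the combination to docetaxel. Of the ATF4 targets, Atf3 was at 444, 408, 545 and 192 CPM and Ppp1r15a, which reverses the integrated stress response, at 192, 187, 208 and 111 CPM, both lowest in the combination.

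Few cDC1 barcodes carried several UMIs of mitotic genes. Barcodes with at least 5 UMIs of mitotic genes numbered 6 of 39, 2 of 26, 7 of 52 and 12 of 74, or 15.4% (5.86 to 30.5%), 7.69% (0.946 to 25.1%), 13.5% (5.59 to 25.8%) and 16.2% (8.67 to 26.6%). The 4 intervals overlap. With barcodes thinned to 10000 UMIs and a limit of 3 UMIs, they were 6 of 35, 0 of 23, 5 of 49 and 10 of 69, and 4, 3, 3 and 5 shallower barcodes were left out. The mitotic UMIs summed to 582, 26, 500 and 598, of which the top 3 barcodes of each library held 461, 14, 399 and 392. The topoisomerase Top2a was at 102, 14.5, 68.8 and 71.2 CPM and the proliferation marker Mki67 at 128, 16.3, 134 and 86.3 CPM, lowest in ORIN1001. The tubulins Tuba1b, at 841, 366, 830 and 955 CPM, and Tubb5, at 951, 423, 791 and 991 CPM, were also lowest there. Without the barcodes of 5 or more UMIs of the longer cell-cycle list, a larger set of 13, 8, 16 and 29 barcodes, the log2 ratio of ORIN1001 to vehicle went from -1.20 to 0.02 for Tuba1b and from -1.17 to 0.15 for Tubb5. At 26 to 74 barcodes per library a moderate difference in the share of dividing cDC1 was not detectable.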

How the data were processed

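Per the labels, CD45+ cells sorted from 2153L tumours were run on the Chromium Next GEM single cell 3' (V2) kit, 1 library per treatment. The deposited files are UMI counts per gene and barcode, made by the authors with Cell Ranger 5.0.1 per the file headers, and not normalized. The submitters' processing notes also name Seurat 4.0.1 and mm10. The annotation release is not given in the sources used here. Whether the animals behind a library were pooled is not given either.

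From these counts, barcodes with at least 200 genes and under 10% mitochondrial UMIs were gated as described. UMIs of the gated barcodes were summed per library, and log2 ratios of CPM have exact 95% intervals from the counts. With 1 library per group no test was run. Shares and medians over all genes are given for cDC1 only, so list values of other gates stand without them. A gene was measured in a comparison if either library had at least 30 UMIs, and called past 2-fold; a gene at 0 was set to a floor of 3 counts, and the other gates were treated the same way. These were cDC2 (Cd209a at least 2 UMIs, none of Xcr1 and Clec9a), mature dendritic cells (both Ccr7 and Fscn1), pDC (Siglech at least 2, Xcr1 and Clec9a together under 2), macrophages (C1q genes at least 10), T cells (Cd3 genes at least 2) and neutrophils (8 granule and receptor genes at least 1% of UMIs, under 5 MHC class II UMIs, in no dendritic gate); conditions on C1q, Cd3, Siglech, Ccr7 and Fscn1 kept the gates apart. On simulated counts with 200 genes changed at a log2 of 2.0, 100.0% passed 2-fold in each of the 5 comparisons. Unchanged genes passed in 0.907% for ORIN1001 to vehicle (3509 genes), 0.785% for docetaxel to vehicle (4660 genes), 0.890% for the combination to vehicle (5595 genes), 0.639% for the combination to docetaxel (5676 genes) and 1.83% for the combination to ORIN1001 (5679 genes). The simulated counts held Poisson counting error only, with no spread between barcodes, and the changed genes were drawn from well-counted ones. These percentages check the computation and do not hold for real genes whose UMIs sit in few barcodes.

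Doublets were kept. Scrublet marked 2.56%, 0%, 1.27% and 1.82% of barcodes, and where it marked under 0.5% a rate of 0.8% per 1000 barcodes was used; removing 262, 614, 106 and 163 barcodes took 1, 0, 1 and 0 cDC1. The members and lists were chosen with earlier results of these data known. Named genes were the 8 with the largest ratio in each direction of 4 comparisons, whose higher library had 30 or more UMIs and 50 or more CPM, whose 2 intervals did not overlap and whose level was at least 10% of that in their highest gate, leaving out genes of mitochondria, ribosomal proteins, antigen receptors and haemoglobin and predicted genes, plus up to 4 per list, the 5 markers and Xbp1; further list members are given as examples. Outside these, Klf2, Ier3, Ass1, Dnase1l3, Plpp1, Tlr11, the S100 genes and the genes past 2-fold in both of a pair of comparisons were chosen after their values were seen. Alternatives were a stricter gate, doublet removal, a stricter mitochondrial limit, thinning, other denominators, mean CPM per barcode, centring, other count minimums, and leaving out members with S100 or cell-cycle UMIs or, added after seeing the data, the barcode with the most UMIs of each gene. Tools were Python 3.11.15, numpy 2.4.6, scipy 1.17.1, pandas 2.3.3, scanpy 1.11.5 and matplotlib 3.10.9.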

Additional observations from a re-analysis of the deposited data

Results flagged for a closer look

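Some values stood on opposite sides of 0 for the same drug given without and with the other drug, and the difference between the 2 settings was not tested. For ORIN1001, to vehicle and then on top of docetaxel, the log2 ratio was 3.11 and -1.15 for Oasl2, an interferon-induced antiviral gene, and 3.13 and -1.63 for the adhesion molecule Epcam, and the tubulin list median was -0.96 and 0.32.

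For docetaxel, to vehicle and then on top of ORIN1001, Oasl2 was at 2.80 and -1.46, Rtp4, a chaperone induced by interferon, at 1.98 and -1.42, Epcam at 3.10 and -1.66, the repressor Zeb2 at 4.98 and -1.38, the receptor Tgfbr1 at 1.20 and -1.22 and the chemokine Ccl6 at 1.89 and -1.01. The mitotic genes Ube2c and Cdk1 were at -1.60 and 4.91 and at -1.10 and 2.51. The list medians were 0.32 and -0.55 for chemokines, 0.21 and -0.72 for PERK and ATF4 targets, -0.44 and 2.40 for the cell cycle and -0.30 and 1.08 for tubulins. Several of these genes were near 0 in vehicle: Oasl2 had 6 UMIs there and Zeb2 had 1. The cell-cycle genes rest on few barcodes, and ORIN1001 had 26 mitotic UMIs in all against 500 to 598 in the other libraries.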

How the results depend on the processing

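No paired analysis was possible because each group has 1 library. The limits are the 26 to 74 barcodes per library, counting error that says nothing of the spread between mice, and RNA of other cells in the gate. Over the alternatives 24 share values, 63 gene counts, 669 list medians and 1894 single-gene ratios stayed near the reported value with their sign, while 1, 17, 25 and 156 moved; 5 list medians and 19 single-gene ratios changed sign. The cause was not tested, except where barcodes left out or a higher count minimum bring it about by construction.

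Outside the neutrophil gate the log2 share ratio of the combination to ORIN1001 was 0.70. With at least 100 UMIs per gene, fewer genes could be called: 13 higher and 18 lower for ORIN1001 to vehicle, 29 and 7 for docetaxel, 20 and 16 for the combination, 5 and 21 for the combination to docetaxel and 38 and 16 for the combination to ORIN1001. The cell-cycle median then was 0.16 for the combination to vehicle and 0.51 to ORIN1001. With at least 10 UMIs the PERK and ATF4 median was -0.21 for docetaxel to vehicle, 0.16 for the combination to docetaxel and -0.16 to ORIN1001.

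Without the members of 5 or more cell-cycle UMIs (13, 8, 16 and 29 barcodes), 55 genes were lower for ORIN1001 to vehicle and 133 for the combination to docetaxel. The tubulin medians were 0.084 for ORIN1001, 0.30 for docetaxel and 0.81 for the combination to vehicle, and 0.78 for the combination to docetaxel. The type I interferon medians were -0.81 for the combination to vehicle, -1.12 to docetaxel and -0.26 to ORIN1001, the interferon-γ median was -0.31 and the class II median 0.079 for the combination to docetaxel. The chemokine medians were -0.35 for ORIN1001 and -1.67 for the combination to vehicle and -2.21 for the combination to docetaxel. For ORIN1001 to vehicle the ratios were 0.19 for Ube2c and Ccna2, 1.78 for Cdca8 and Birc5, 0.78 for Stmn1 and Tk1, 0.016 for Tuba1b and 0.15 for Tubb5. Ube2c was at 0.25 for docetaxel and 0.57 for the combination, Oasl2 at -0.17 and Ifit3 at -0.076 for the combination, and Hilpda at 0.040 for docetaxel to vehicle.

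Without the members of 10 or more S100a8 and S100a9 UMIs, 44 genes were lower for the combination to vehicle. The chemokine median was -0.33 for ORIN1001 and 0.081 for the combination, the glycolysis median 0.25 for docetaxel and 0.47 for the combination, Hilpda 0.80 for docetaxel and Nfil3 0.029 for the combination, all to vehicle. With at least 3 UMIs of Xcr1 and Clec9a the chemokine median was -0.87 for ORIN1001 and -1.28 for the combination to vehicle, and the combination to docetaxel was 1.81 for Il12b and 0.075 for Ccl5. Without marked doublets the chemokine median of the combination was -0.10 to vehicle and -0.65 to docetaxel.

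Without the barcode with the most UMIs of each gene, an alternative chosen after seeing the data, 268 genes were higher for the combination to vehicle, and 400 higher and 49 lower to ORIN1001. The chemokine median was -0.40 for ORIN1001 to vehicle and 0.13 for the combination to ORIN1001, Arg1 was at -1.17 for ORIN1001 to vehicle and Il12b at 0.94 for the combination to docetaxel. With the mean of CPM per barcode, 138 genes were lower for the combination to ORIN1001, where the type I interferon median was -0.21. The glycolysis median was then -0.35 for docetaxel to vehicle and the early-response median -0.54 for the combination to docetaxel.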

Other observations

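A few barcodes held most UMIs of Il12b. This gene, which encodes the shared subunit of IL-12 and IL-23, had 0, 1, 186 and 109 UMIs in vehicle, ORIN1001, docetaxel and the combination. In docetaxel 1 barcode held 165 of them and in the combination 53. Il12b was detected in 5 of 52 docetaxel barcodes (9.62%) and 6 of 74 in the combination (8.11%), against 0 of 39 in vehicle, which allows a share of up to 9.03% by the exact 95% interval, so a difference was not detectable at this depth. In the T cell gate, which should lack the gene, 0.114 to 0.233% of barcodes had a UMI, at a shallower depth. Arg1, an arginine-degrading enzyme of myeloid cells, had 98 of its 99 ORIN1001 UMIs in 1 barcode.

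Of 475 barcodes with at least 2 UMIs of Xcr1 and Clec9a, 191 met the other conditions, which overlap in what they leave out. C1q genes left out 88, whose Naaa level was 365 CPM, Cd3 genes 64 (552 CPM), Siglech 166 (104 CPM) and Ccr7 with Fscn1 12. The kept members had 1525 CPM of Naaa. The barcodes left out for Ccr7 with Fscn1 numbered 3, 3, 6 and 0 in vehicle, ORIN1001, docetaxel and the combination.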
